A study of Mus musculus with 10 samples.

Results

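The 31 genes described here encode the enzymes of the citric acid (TCA) cycle, the mitochondrial pyruvate carrier, the pyruvate dehydrogenase complex with its kinases and a phosphatase, pyruvate carboxylase and the malate-aspartate enzymes. They were chosen by name and were followed in messenger RNA of mouse myocardium. All 31 were among the 11777 gene symbols of the deposited transcript table, and all 31 entered the comparison of genotypes, since each reached a mean of at least 1 FPKM (fragments scaled to transcript length and library size) in a group. The values are the sum over the 60 transcripts listed for these genes; 15 genes had 1 listed transcript and 16 had several.

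The mice were of the C57BL/6 strain, and the tissue was myocardium. There were 5 libraries labelled NPRA-/-, from mice that lack the receptor for atrial natriuretic peptide, NPRA (gene symbol Npr1), in the myocardium, named 217, 227, 231, 240 and 241. There were 5 libraries from littermates with the receptor intact, labelled NPRA+/+ and named 228, 230, 242, 243 and 255. The sources used here do not give the driver of the deletion, the deleted part of Npr1, the age of the mice or any allele carried by both groups. They also do not say whether each number is 1 mouse, so p-values measure the spread between these samples, which may be technical.

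The cycle takes acetyl-CoA, made from pyruvate or from fatty acids, and oxidises it to carbon dioxide while it passes electrons to NADH and to ubiquinone. Pyruvate enters the mitochondrion through a carrier of MPC1 and MPC2 and is converted by the pyruvate dehydrogenase complex, which kinases (PDK) switch off by phosphorylation and phosphatases (PDP) switch on. Heart muscle depends on this pathway for nearly all of its ATP and takes most of its acetyl-CoA from fatty acids, and PDK4, which rises in fasting, is known for holding back pyruvate oxidation there.

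The values summed to 430059 to 453122 FPKM per library, and the 31 genes made up 1.65% to 1.84% of that sum. Sequencing depth is unknown, so precision rests on the spread between libraries alone. Npr1 itself was at 4.12 to 5.20 FPKM in all 10 libraries, with overlap between the groups, so it did not check the labels; "NPRA-/-" and "NPRA+/+" below name labels. All 12 cardiomyocyte markers were measured, with a summed level of 32589 to 37227 FPKM in NPRA-/- and 32987 to 35110 FPKM in NPRA+/+. Of these markers, 10 had a higher and 2 a lower value in NPRA-/- (median log2 difference 0.036), and 0 passed the adjusted threshold. The summed level of 4 atrial markers (Myl7, Myl4, Sln and Dkk3) ran from 3.66 to 309.7 FPKM in NPRA-/- and from 2.51 to 191 FPKM in NPRA+/+, so libraries of both groups differed in atrial tissue; Myl7 and Sln were listed at 0 in libraries 241 and 255. Summed macrophage markers were at 225 to 246 FPKM in NPRA-/- and at 251 to 287 FPKM in NPRA+/+ (two-sided exact permutation p = 0.00794, the smallest that 5 against 5 can give; 0.0873 after adjustment over 11 such measures). Summed endothelial markers were at 282 to 355 FPKM in NPRA-/- against 335 to 372 FPKM in NPRA+/+ (exact permutation p = 0.0476, adjusted 0.262). All 10 markers of each of these lists, all 10 fibroblast and all 8 smooth muscle markers (median log2 difference -0.33) had lower values in NPRA-/-, and all 5 erythroid markers had higher ones (median 0.15), none past the adjusted threshold. In tissue RNA fewer cells of a type and less RNA per cell cannot be told apart. The part of tissue makeup in the values below was not tested.

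No member differed between the genotype labels past the threshold. Of the 31 genes, 0 had an adjusted p under 0.05 in limma's test, where 0.00929% of all 10764 genes tested did (1 gene), and the lowest adjusted p of a member was 0.833. At an unadjusted p under 0.05 there were 2 members, Idh2 and Pdk1, both with a higher mean in NPRA-/-, against 5.52% of all genes tested in either direction and 1.38% with a higher mean in NPRA-/-. The log2(FPKM + 1) values were higher in NPRA-/- for 21 of the 31 members, against 39.4% of all genes tested. The median log2 difference of the members was 0.018, and that of all genes tested was -0.029. These counts move with the scaling: 17 members were higher when every library was set to the same sum, 18 after quantile normalization and 27 after median-of-ratios scaling, where 35.2%, 49.7% and 50.6% of all genes were higher. The members' median exceeded that of all genes by 0.048 as deposited, 0.046 with the same sum, 0.052 with median-of-ratios scaling and 0.0053 with quantile normalization. The count of higher members was 16 without library 230 and 26 without library 255. The median SE of the log2 difference was 0.053 for the members and 0.11 for all genes tested. These 2 values are not matched for level: 23 of the 31 members had a mean of at least 100 FPKM, against 522 of all 10764 genes tested.

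**Figure D1:**
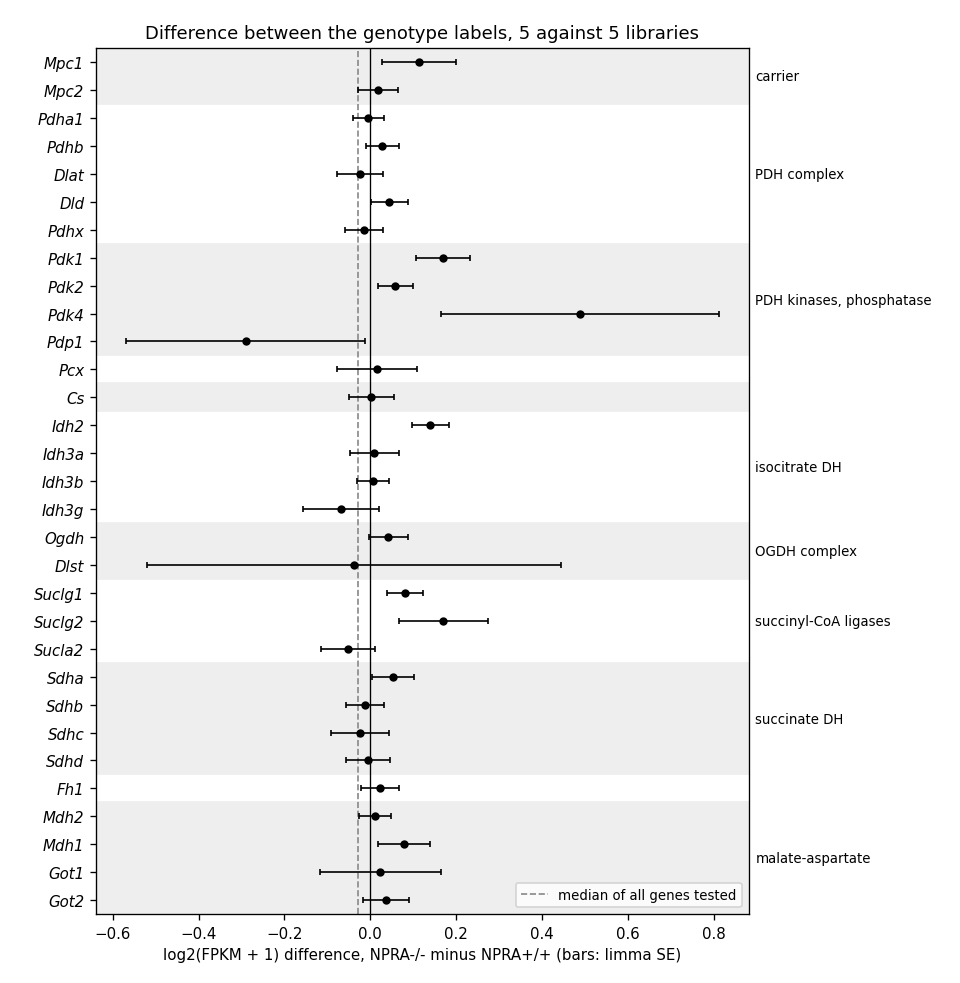
Difference in log2(FPKM + 1) between 5 NPRA-/- and 5 NPRA+/+ libraries for each of the 31 genes, in pathway order, with limma's SE as bars and the median of all genes tested as a dashed line. Most genes lie within 0.1 of 0, while Pdk4, Pdp1 and Dlst have wide bars.

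Levels placed the pathway among the most abundant messages of the tissue. Per length, Mdh2 led with a mean of 692 FPKM (rank 54 of 11777 genes), followed by Idh2 at 603 FPKM (rank 72), Ogdh at 432 FPKM, Mdh1 at 422 FPKM and Pdha1 at 410.4 FPKM. Idh2 lay below Mdh2 in every library, whereas Ogdh, Mdh1 and Pdha1 changed places between libraries. Of the members, 23 had a mean of at least 100 FPKM. The lowest were the kinase gene Pdk1 (24.9 FPKM), the phosphatase gene Pdp1 (9.39 FPKM) and Pcx (4.88 FPKM).

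**Figure D2:**
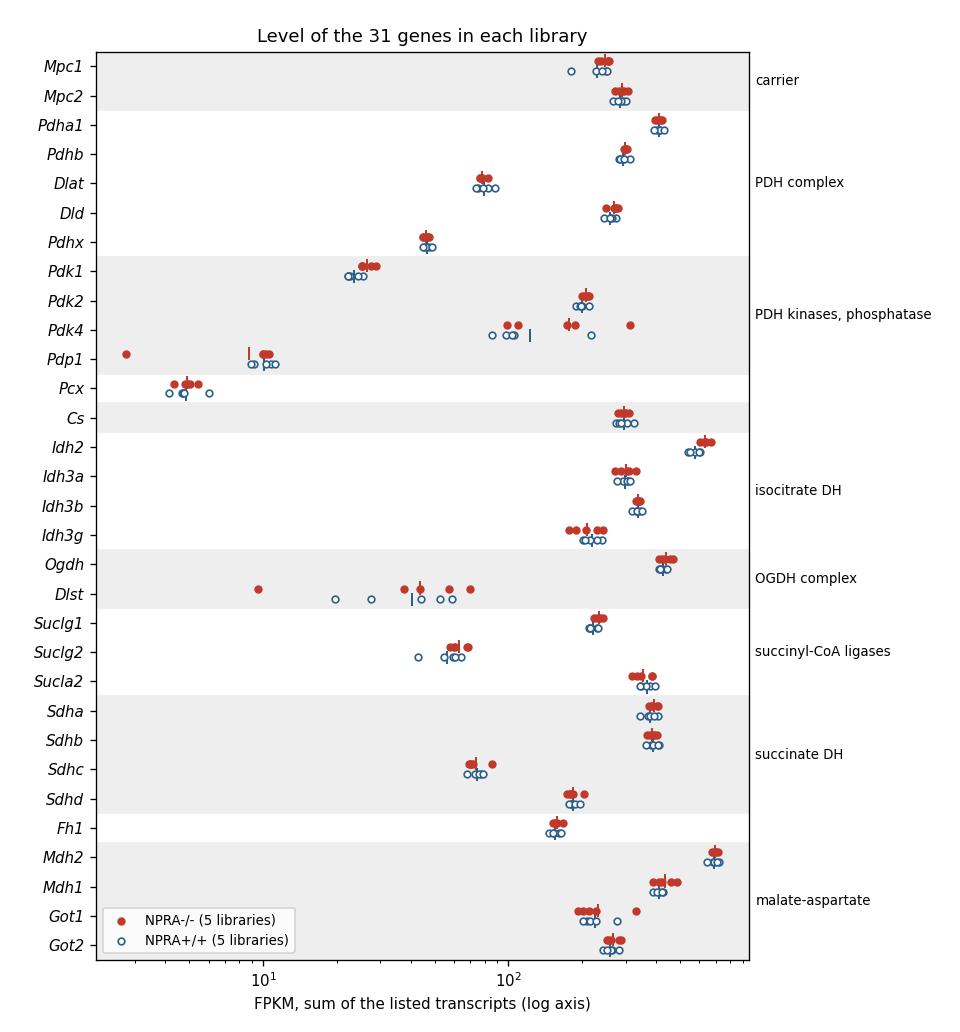
FPKM of the 31 genes on a log axis, with 1 point per library (filled NPRA-/-, open NPRA+/+) and a vertical line at each group's mean. The catalytic genes lie mostly between 100 and 722 FPKM, the points of both groups overlap for all genes but Idh2, and Dlst, Pdk4 and Pdp1 are spread widest.

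Pyruvate entry began with the 2 carrier subunits, which act as a pair in the inner membrane. Mpc2 was at 267 to 308 FPKM in all libraries. Mpc1 was at 257, 238, 254, 231 and 255 FPKM in the NPRA-/- libraries 217, 227, 231, 240 and 241, and at 249, 228, 252, 179.8 and 239.8 FPKM in the NPRA+/+ libraries 228, 230, 242, 243 and 255. Only library 243 stood apart from the rest, and the other libraries of both groups overlapped. The log2 difference of Mpc1 was 0.11 (SE 0.086, limma adjusted p = 0.914), and it was 0.027 without library 243. The ratio of Mpc2 to Mpc1 was 1.61 in library 243 and 1.13 to 1.23 in the other 9.

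The pyruvate dehydrogenase complex joins E1 (Pdha1 and Pdhb), E2 (Dlat), E3 (Dld) and the E3-binding protein (Pdhx). Its genes kept close proportions. Pdha1 (394 to 429.7 FPKM) and Pdhb (282 to 314 FPKM), the 2 chains of E1, had the third and second lowest spread of all members, with a coefficient of variation (CV, SD over mean within groups) of 2.96% and 2.72%. Dlat (73.9 to 88.1 FPKM) and Pdhx (44.8 to 49.0 FPKM) lay well below them, and the ratio of Pdha1 to Dlat was 4.81 to 5.51. Dld, which also serves the 2-oxoglutarate and branched-chain complexes, had the smallest p of the 5.

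Dld was at 275, 268, 278, 272 and 249 FPKM in NPRA-/- and at 273, 263, 259.6, 246 and 259 FPKM in NPRA+/+, in the library order given above. The groups overlapped, with library 241 low in the first and library 228 high in the second. On the log2 scale Dld differed by 0.044 with an SE of 0.043 (adjusted p = 0.925 in limma's test). Of the 5 genes of the complex, 2 had a higher and 3 a lower value in NPRA-/-.

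Of the kinases of the complex, Pdk2 and Pdk1 varied little between libraries (CV 3.52% and 6.46%) and Pdk4 varied widely. Pdk2, the kinase found across many tissues, was at 189 to 213 FPKM in every library. Pdk1 was at 29.0, 27.5, 25.2, 25.3 and 25.3 FPKM in NPRA-/- and at 25.6, 22.2, 22.7, 24.4 and 22.1 FPKM in NPRA+/+. Library 228 overlapped the NPRA-/- values, and the other 4 NPRA+/+ libraries lay below all of them. The log2 difference of Pdk1 was 0.17 (SE 0.063, limma adjusted p = 0.867). It stayed between 0.14 and 0.20 when any 1 library was left out.

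Pdk4 (chromosome 6, 5483351 to 5496309, minus strand, GRCm38/mm10) varied most among the abundant members. It was at 98.4, 312, 173, 109 and 187 FPKM in the NPRA-/- libraries 217, 227, 231, 240 and 241, and at 85.9, 97.8, 105, 103.4 and 217 FPKM in the NPRA+/+ libraries 228, 230, 242, 243 and 255. Libraries 227, 231 and 241 of one group and library 255 of the other were high, so the groups overlapped across most of their range. Mean Pdk4 was 176 ± 85.1 FPKM in the libraries labelled NPRA-/- and 122 ± 53.7 FPKM in the others (SD, n = 5 each). The fitted log2 difference was 0.49 with an SE of 0.32 (limma adjusted p = 0.914), and it went from 0.25 without library 227 to 0.72 without library 255.

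Its CV within groups was 46.2%, and 5 of the 522 genes with a mean of at least 100 FPKM had a larger one. Pdk4 made up 26.5% to 57.9% of the summed FPKM of Pdk1, Pdk2 and Pdk4, the kinase genes among the 31; Pdk3, from the list of other pathway genes, was at 0.869 to 2.03 FPKM and is not in that sum. Pdk2 exceeded Pdk4 in 8 libraries, by up to 2.48 times in library 228, and lay below it in libraries 227 (ratio 0.640) and 255 (ratio 0.906). Each genotype group thus held libraries with either order of these kinases.

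Genes that respond to fasting and PPAR activation, as Pdk4 is known to do, were set beside it. Ucp3, a mitochondrial uncoupling protein of muscle, was at 12.9, 20.1, 22.9, 14.0 and 20.0 FPKM in NPRA-/- and at 14.9, 14.1, 15.0, 12.6 and 30.4 FPKM in NPRA+/+, in the same library order. Libraries 227, 231, 241 and 255 held the 4 highest values of both Pdk4 and Ucp3, although in a different order. Cpt1a, which admits long-chain fatty acids to the mitochondrion, was highest in library 255 (13.5 FPKM) but at 9.49 FPKM in library 227 and 7.46 FPKM in library 231. The brown fat gene Ucp1 was at 5.89 FPKM in library 255, at 0.091 FPKM in library 230 and listed at 0 in the other 8, library 227 among them. Of 11 adipocyte markers 8 were measured, with a summed level of 50.9 to 67.1 FPKM in NPRA-/- and 60.2 to 77.98 FPKM in NPRA+/+. That sum rested mainly on Plin4 (27.0 to 40.6 FPKM over all libraries) and Cidea (15.6 to 25.3 FPKM), with Slc36a2 at 2.92 to 5.88 FPKM. The others were low and varied more: Adipoq at 0.119 to 2.22 FPKM, Cidec at 0 to 3.60, Cfd at 0 to 3.51 and Retn at 0 to 2.04. The part of these markers in the level of Pdk4 was not tested.

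Of the 20 genes on this list 18 were tested, and 15 had a higher and 3 a lower value in NPRA-/-, with a median log2 difference of 0.065. None passed the adjusted threshold in limma's test, and 2 were at an unadjusted p under 0.05. Of all genes tested, 39.4% had a higher value and 5.52% were at that p. The smallest p-values belonged to the beta-oxidation genes Acadm, Hadhb and Hadha and to Mlycd, which removes malonyl-CoA; Hadha, for example, was at 278 ± 12.7 against 258 ± 14.2 FPKM (SD, n = 5 each).

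**Figure D3:**
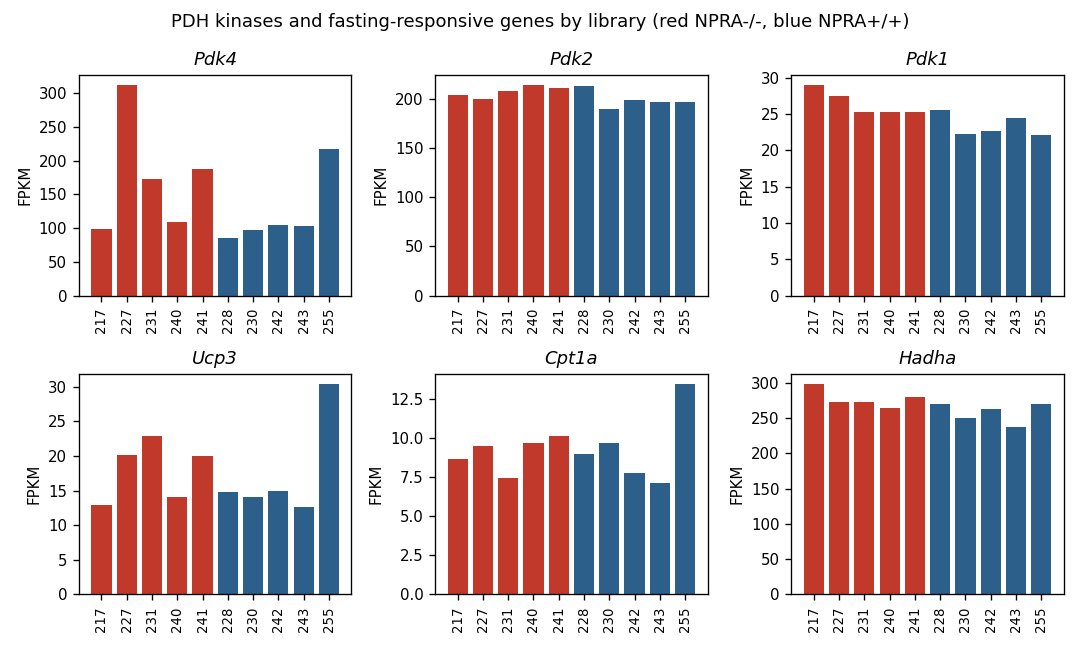
FPKM in each library of the pyruvate dehydrogenase kinase genes Pdk1, Pdk2 and Pdk4 (top) and of Ucp3, Cpt1a and Hadha (bottom), with NPRA-/- in red and NPRA+/+ in blue. Pdk4 and Ucp3 are high in libraries 227, 231, 241 and 255, while Pdk2 stays between 189 and 213 FPKM.

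Pdp1, the catalytic subunit of a pyruvate dehydrogenase phosphatase, was at 10.6, 10.01, 10.2, 2.75 and 10.01 FPKM in NPRA-/- and at 9.17, 8.91, 10.8, 10.3 and 11.1 FPKM in NPRA+/+. Library 240 alone was low, and its 4 listed transcripts were at 0.203 to 1.41 FPKM there. The log2 difference was -0.29 over all libraries and 0.025 without library 240, so its sign rested on that library (limma adjusted p = 0.924 over all libraries). Pcx, the pyruvate carboxylase that refills the cycle with oxaloacetate, was at 4.93, 5.43, 4.33, 4.80 and 5.05 FPKM in NPRA-/- and at 6.03, 4.68, 4.70, 4.14 and 4.77 FPKM in NPRA+/+. The groups overlapped over most of their range (log2 difference 0.016, SE 0.094). Per length, Pdha1 exceeded Pcx by 68.3 to 95.2 times. Pdha1 was the most abundant of the 5 genes of the pyruvate dehydrogenase complex, and Pdhx, the lowest, had a mean of 46.4 FPKM. Each gene of that complex lay above Pcx in every library.

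Citrate synthase opens the cycle. Cs was at 298, 298, 279, 286 and 311 FPKM in NPRA-/- and at 306, 274, 282, 286 and 324 FPKM in NPRA+/+, and the means were 295 ± 12.0 and 294 ± 20.4 FPKM (SD, n = 5 each). The groups covered nearly the same range, and the log2 difference was 0.0022 (SE 0.053, limma adjusted p = 0.998).

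Isocitrate is oxidised by 2 kinds of mitochondrial enzyme. IDH2 works with NADP, while IDH3, built from the products of Idh3a, Idh3b and Idh3g, works with NAD and is the enzyme usually assigned to the cycle. Idh2 (chromosome 7, 80094846 to 80115392, minus strand, GRCm38/mm10) was at 601.3, 667, 624, 630.5 and 636 FPKM in NPRA-/-, and at 578, 539.7, 601.0, 599 and 550.2 FPKM in NPRA+/+. It was the 1 member whose groups did not overlap, and the gap was narrow, between library 217 and library 242. Among all genes tested 1.08% did not overlap, and 0.242% did so with the higher values in NPRA-/-.

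The log2 difference of Idh2 was 0.14 (SE 0.044), with an unadjusted limma p of 0.00836 and an adjusted p of 0.833, so it did not pass over all genes. The difference stayed between 0.12 and 0.16 when any 1 library was left out. With every library set to the same sum, library 217 (582 FPKM) fell below library 242 (597 FPKM) and the groups overlapped. They also overlapped with the same sum without mitochondrially encoded transcripts (585 against 595 FPKM) and for the main Idh2 transcript alone as deposited (598.9 FPKM in library 217 against 599.6 FPKM in library 242), but not with median-of-ratios scaling. Expression of Idh2 was 1.75 to 2.32 times that of Idh3a.

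The groups overlapped for the 3 genes of IDH3, and whether their differences were unlike that of Idh2 was not tested. Idh3b was the steadiest of all members, at 318 to 351 FPKM with a CV of 2.69%. Idh3g, a regulatory subunit, was at 177 to 244 FPKM and had a lower value in NPRA-/- (log2 difference -0.068, SE 0.089). Idh3a, the catalytic subunit, was at 272 to 329.5 FPKM as a sum, but its 2 listed transcripts were divided in 2 ways.

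In libraries 217, 227, 241, 242 and 255 the transcripts ENSMUST00000217484.1 and ENSMUST00000167866.1 held similar shares, with 47.4% to 52.2% of Idh3a FPKM in the first. In libraries 231, 240, 228, 230 and 243 the first held 98.9% to 99.2%. Both patterns occurred in both genotype groups, 3 NPRA-/- and 2 NPRA+/+ libraries against 2 and 3. The transcripts have the same 11 exons except for the start, where the first reaches 177 bases further upstream and its annotated coding region begins 54 bases earlier (384 against 366 codons). That stretch, the coding difference between them, is shown with its start codon in capitals (chr9:54586463-54586516, plus strand, GRCm38, from the GENCODE vM21 transcript sequence).
Idh3a ENSMUST00000217484.1: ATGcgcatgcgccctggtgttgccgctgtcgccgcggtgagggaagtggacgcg

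The 2-oxoglutarate dehydrogenase complex is built like pyruvate dehydrogenase, from Ogdh (E1), Dlst (E2) and the shared Dld (E3). Ogdh was at 456, 436, 409, 422 and 468 FPKM in NPRA-/- and at 440.5, 421, 441, 411 and 413 FPKM in NPRA+/+. The groups overlapped (log2 difference 0.042, SE 0.045, limma adjusted p = 0.928). Dlst, the E2, was at 43.8, 9.53, 57.1, 37.5 and 69.4 FPKM in NPRA-/- and at 27.5, 43.9, 52.8, 58.9 and 19.6 FPKM in NPRA+/+. Libraries 227, 255 and 228 were low and library 241 was high, so the range within each group was far wider than the difference of the means.

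Dlst had the largest CV of the members, 46.5%, and its log2 difference ran from -0.27 without library 241 to 0.42 without library 227. Only 1 of the 13 transcripts annotated for Dlst is listed in the table, and the others were not analysed here. The ratio of Ogdh to Dlst therefore ran from 6.74 in library 241 to 45.7 in library 227, the widest range among the ratios of subunits computed.

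Ogdh (chromosome 11, 6291633 to 6356642, plus strand) also showed a change of listed transcript in 1 library. ENSMUST00000101554.8 held 94.3% to 95.4% of Ogdh FPKM in 9 libraries and 41.5% in library 230. There ENSMUST00000003461.14, with the same coding sequence and 4030 bases in common, held 48.4%, and the sum was like that of the other libraries. Further, ENSMUST00000081894.4 was at 23.4 FPKM in library 230 against 0.696 to 1.45 FPKM elsewhere, and ENSMUST00000093350.9 at 9.65 FPKM against 0 to 0.059 FPKM.

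The latter transcripts carry an exon of 91 coding bases in place of one of 103 bases in ENSMUST00000101554.8. The exons lie next to each other on chromosome 11 (chr11:6316765-6316855 and chr11:6316978-6317080, plus strand, GRCm38), and 57 of 88 aligned bases were identical (64.8%). They are shown as the coding stretch in which the main Ogdh transcript differs from both of these, with the identical bases in capitals, from the GENCODE vM21 transcripts.
Ogdh ENSMUST00000101554.8: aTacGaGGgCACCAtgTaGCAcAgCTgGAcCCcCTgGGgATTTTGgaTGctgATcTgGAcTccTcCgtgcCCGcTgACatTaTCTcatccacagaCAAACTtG
Ogdh ENSMUST00000081894.4: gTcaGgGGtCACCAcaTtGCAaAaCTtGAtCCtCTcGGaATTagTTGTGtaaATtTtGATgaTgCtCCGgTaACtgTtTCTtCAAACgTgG
ENSMUST00000093350.9 has a further coding exon of 45 bases (chr11:6324878-6324922), which the other transcripts named here lack. The form with 103 bases was the main one in each library, library 230 included, since ENSMUST00000003461.14 carries it as well.

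**Figure D4:**
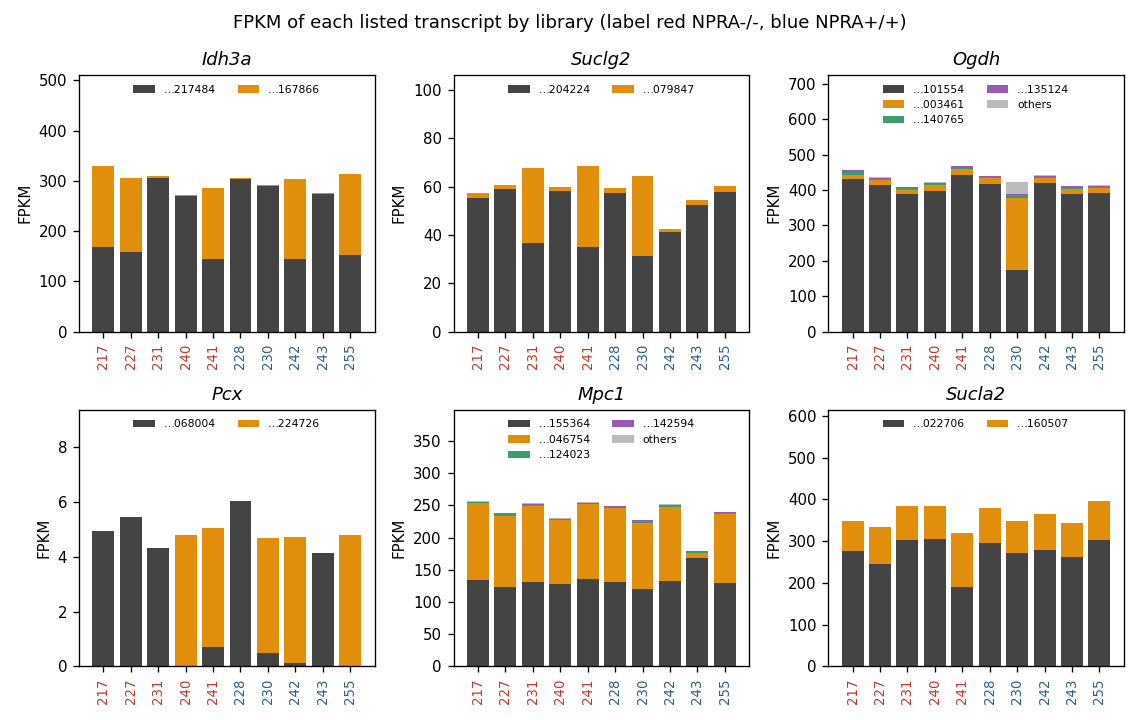
FPKM of each listed transcript, stacked, in the 10 libraries for Idh3a, Suclg2, Ogdh, Pcx, Mpc1 and Sucla2 (transcripts past the fourth summed as others; the legend gives the end of each identifier). Bars keep a similar height while the parts change in single libraries, such as 230 for Ogdh and 243 for Mpc1.

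Succinyl-CoA is split by a ligase whose alpha subunit is Suclg1 and whose beta subunit sets the nucleotide: Sucla2 makes ATP and Suclg2 makes GTP. Suclg1 had the smallest p of the 3. It was at 243, 234, 235, 230.2 and 224 FPKM in NPRA-/- and at 229.5, 212, 215, 215 and 231 FPKM in NPRA+/+. Libraries 228 and 255 reached into the NPRA-/- range, while the other 3 NPRA+/+ libraries lay below it (log2 difference 0.081, SE 0.041, limma adjusted p = 0.906). The difference was 0.066 to 0.098 when any 1 library was left out.

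Sucla2 was at 319 to 397 FPKM and Suclg2 at 42.6 to 68.6 FPKM. The ATP-forming beta subunit was thus above the GTP-forming one in every library, by 4.65 to 8.55 times. Suclg2 had a log2 difference of 0.17 (SE 0.10, limma adjusted p = 0.908), which was 0.075 without library 242, the lowest of all.

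Suclg2 also divided its FPKM differently in 3 libraries. ENSMUST00000204224.2 held 95.8% to 97.3% in 7 libraries, but 53.8% in library 231, 51.1% in library 241 and 48.8% in library 230, where ENSMUST00000079847.7 held the rest. The 2 transcripts begin at different first exons (from 95718800 and from 95692882 on chromosome 6, minus strand), and the first codes for 433 codons against 384. The coding part of its first exon, which the other transcript lacks, is shown with the start codon in capitals (chr6:95718689-95718775, minus strand, GRCm38, GENCODE vM21).
Suclg2 ENSMUST00000204224.2: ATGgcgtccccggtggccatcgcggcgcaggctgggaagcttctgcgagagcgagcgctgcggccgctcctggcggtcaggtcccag
For Sucla2, ENSMUST00000160507.7 held 20.5% to 27.0% in 9 libraries and 40.3% in library 241, and its coding sequence is the same as that of ENSMUST00000022706.6.

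The libraries in which the division differed were not the same for Idh3a, Ogdh, Suclg2 and Sucla2. In Pcx, ENSMUST00000068004.12 held all of the FPKM in libraries 217, 227, 231, 228 and 243, where ENSMUST00000224726.1 was listed at 0, and 0.437% to 14.0% in the other 5. All 4061 bases of the annotated form of the latter, which is of a later version, lie within the 4148 bases of ENSMUST00000068004.12. In Mpc1, ENSMUST00000046754.14 was at 8.05 FPKM in library 243 against 100.2 to 119 FPKM elsewhere. It shares 916 of its 920 bases with ENSMUST00000155364.7, the main Mpc1 transcript, which was at 168 FPKM in library 243 against 119 to 135 FPKM elsewhere. Reads from shared bases match both transcripts of such a pair, and whether this moved the division was not tested.

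Of the 52 member transcripts that entered the test, 0 passed (5 of 17641 transcripts did, or 0.0283%), with 2 at an unadjusted p under 0.05 (5.5% of all transcripts tested) and a lowest limma adjusted p of 0.890. These 2 were the main transcripts of Idh2 and Pdk1.

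Succinate dehydrogenase is both a cycle enzyme and complex II of the respiratory chain. Its catalytic subunits Sdha (342 to 406 FPKM) and Sdhb (362 to 411 FPKM) lay close to each other in every library, with a ratio of Sdhb to Sdha of 0.942 to 1.13. The membrane anchors were lower, with Sdhd at 173 to 203 FPKM and Sdhc at 67.9 to 85.7 FPKM. Sdha was at 404, 406, 375, 384 and 384 FPKM in NPRA-/- and at 406, 369, 377, 342 and 391 FPKM in NPRA+/+. Library 243 was the lowest and the groups overlapped (log2 difference 0.052, SE 0.049, limma adjusted p = 0.922). The values of the other 3 subunits were lower in NPRA-/- by at most 0.024 on the log2 scale.

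Fumarase, encoded by Fh1, followed at 166, 156, 158, 155 and 152 FPKM in NPRA-/- and at 154, 146, 160.3, 152 and 164 FPKM in NPRA+/+. The groups covered similar ranges (log2 difference 0.023, SE 0.044, limma adjusted p = 0.962).

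The malate-aspartate shuttle carries the reducing power of cytosolic NADH into mitochondria by means of paired cytosolic (Mdh1, Got1) and mitochondrial (Mdh2, Got2) enzymes. Mdh2, which also closes the cycle, was at 646 to 722 FPKM. Mdh1 was at 488, 458, 424, 389 and 411 FPKM in NPRA-/- and at 411, 389, 426, 402 and 422 FPKM in NPRA+/+. Libraries 217 and 227 were the highest, and the other 3 NPRA-/- libraries lay within the NPRA+/+ range.

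The log2 difference of Mdh1 was 0.079 (SE 0.060, limma adjusted p = 0.914) and 0.036 without library 217. Libraries 217 and 227 also had the highest sums of the 4 atrial markers, 309.7 and 206 FPKM, but library 230, with the third highest (191 FPKM), had the lowest Mdh1 of all. The part of atrial tissue in the level of Mdh1 was not tested. With the log2 sum of the 4 atrial markers as a covariate, an alternative chosen after seeing the data, no member passed either.

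Got1 stood out for library 241, with 330.1 FPKM against 192 to 227 FPKM in the other 4 NPRA-/- libraries. In NPRA+/+ it was at 276 FPKM in library 228 and at 201 to 227 FPKM in the rest. Got2 was steadier at 244 to 287 FPKM, so that the ratio of Got2 to Got1 was below 1 in libraries 241 (0.870) and 228 (0.954) and 1.17 to 1.32 in the other 8. All 4 enzyme genes of the shuttle had a higher value in NPRA-/-, with log2 differences of 0.011 to 0.079 and an SE of 0.038 to 0.14. The sign was not stable for Mdh2 (-0.012 without library 230) and Got1 (-0.11 without library 241).

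Across the pathway, the spread between libraries was small for most members and wide for a few. The median CV of the 23 members with a mean of at least 100 FPKM was 4.60%, against 6.52% for all 522 genes at that level, and 24 of the 31 members had a CV under 10%. Dlst, Pdk4 and Pdp1 (24.1%) had the largest, and Idh3b, Pdhb and Pdha1 the smallest.

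**Figure D5:**
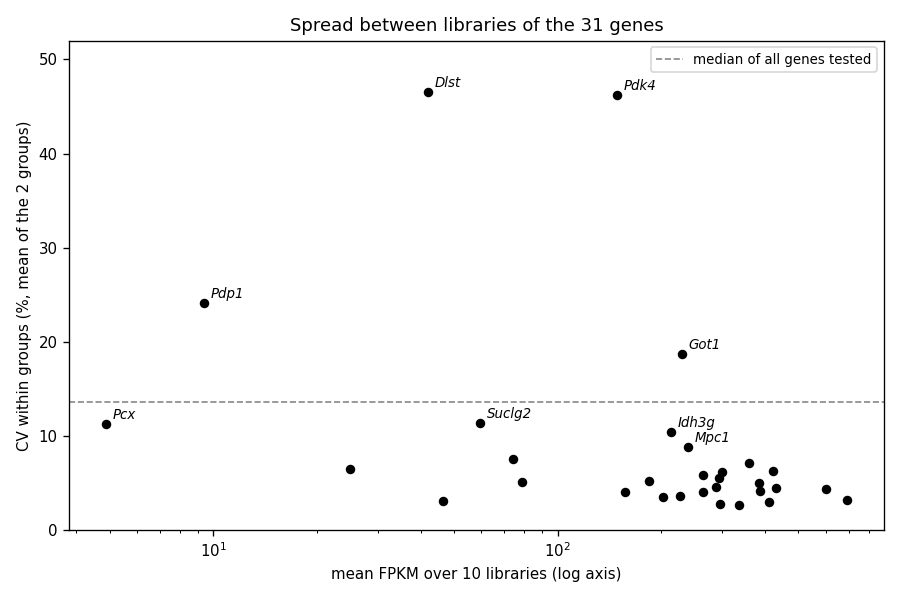
CV within groups against mean FPKM for the 31 genes, with the median CV of all genes tested (13.6%) as a dashed line. Dlst, Pdk4, Pdp1 and Got1 lie above the line, and the other members below it.

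Other genes of the pathway were followed as a list of 40 enzymes, carriers and assembly factors that are not among the 31. Of these, 38 were in the table and 37 were tested; 23 had a higher and 14 a lower value in NPRA-/-, with a median log2 difference of 0.023, and none passed limma's adjusted threshold (1 was at an unadjusted p under 0.05). The shares over all genes tested were 39.4% higher and 5.52% at that p. The smallest p-values belonged to Ldhd, Me1, Ldhb and Ldha. Ldhd, the mitochondrial D-lactate dehydrogenase, was at 12.0 ± 2.46 FPKM in NPRA-/- and 8.85 ± 1.26 FPKM in NPRA+/+ (SD over 5 libraries each). Its difference was 0.38 on the log2 scale with an SE of 0.14 (adjusted p = 0.867, limma). Ldhb, the heart form of lactate dehydrogenase, was at 700.4 ± 29.6 against 671 ± 24.9 FPKM, and Ldha, the muscle form, at 130.0 ± 6.33 against 138 ± 10.8 FPKM. Me1, the cytosolic malic enzyme, was at 59.8 ± 1.79 against 56.1 ± 4.15 FPKM.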

How the data were processed

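Per the labels' protocols, RNA enriched with oligo(dT) was made into strand-specific libraries and read from both ends on an Illumina sequencer. The submitters' processing notes name cutadapt, HISAT2 and StringTie with the mm10 build, their versions and settings being not given in the sources used here. The deposited table gives each transcript's level in each library, taken here as FPKM because StringTie writes that unit; the header names none, and TPM would differ by 1 factor per library, which the same-sum alternative covers. Of 22157 transcripts, 22107 matched GENCODE vM21 (GRCm38). FPKM was summed per symbol. Values were used as log2(FPKM + 1), which understates differences of low genes, and genes or transcripts with a mean of at least 1 FPKM in a group were tested.

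The genotype contrast was fitted in limma (version 3.58.1, under R 4.3.3; empirical Bayes with trend, no covariate) with Benjamini-Hochberg adjustment over all 10764 genes or 17641 transcripts at 0.05; the test was tried on simulated data. Summed markers were compared by two-sided exact permutation over samples. The members and lists were chosen with earlier results of these data known. All members are accounted for; values in every library are given for the member with the smallest p in each step and for Cs, Pcx, Fh1 and Pdk4, from each list up to 4 genes with the smallest p are named where none passed, and so are the 3 members with the largest and the 3 with the smallest CV. Values of Got1, Ucp3, Cpt1a and Ucp1 in single libraries, and the Sucla2 and Mpc1 transcripts, were added after their values were seen. Sums, permutations and plots used scipy 1.17.1, pandas 2.3.3, numpy 2.4.6 and matplotlib 3.10.9 under Python 3.11.15.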

Additional observations from a re-analysis of the deposited data

Results flagged for a closer look

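Within groups of 5 libraries, a library was singled out when its gap to the nearest other value exceeded 0.71 of the group's range, which chance gives in about 1 of 20 groups. Of 92 groups examined, 7 met this: 5 of 62 for the members' FPKM, 0 of 22 for marker measures and 2 of 8 for transcript shares. The shares were examined only for the 4 members whose most abundant transcript differed between libraries. The rate of 1 in 20 therefore does not apply to the shares. Pdk4 was at 217 FPKM in library 255, against 85.9 to 105 FPKM in the other NPRA+/+ libraries. Pdp1 was at 2.75 FPKM in library 240, against 10.01 to 10.6 FPKM in the other NPRA-/- libraries. Got1 was at 330.1 FPKM in library 241, against 192 to 227 FPKM. Dlat was at 82.3 FPKM in library 241, against 76.6 to 77.7 FPKM. Sdhc was at 85.7 FPKM in library 217, against 69.2 to 72.0 FPKM.

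The share of Ogdh FPKM in ENSMUST00000101554.8 was 41.5% in library 230, against 94.8% to 95.1% in the other NPRA+/+ libraries. The share of Suclg2 FPKM in ENSMUST00000204224.2 was 48.8% in the same library, against 95.8% to 97.1%.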

How the results depend on the processing

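No member passed the adjusted threshold under any of 13 alternatives or with any 1 library left out (lowest limma adjusted p of a member 0.754). Of 31 members, 14 kept the sign of their log2 difference throughout, 12 higher in NPRA-/- (Idh2, Pdk1, Pdk2, Pdk4, Suclg1 and Suclg2 among them) and 2 lower. The sign of 58 of 712 values changed, and the cause was not tested. With the most abundant transcript alone, Mpc1 was at -0.054, Idh3a at -0.14 and Sdhc at 0.013. With median-of-ratios scaling, Pdha1 was at 0.030, Dlat at 0.010, Pdhx at 0.020, Sdhb at 0.023, Sdhc at 0.011 and Sdhd at 0.030. With every library at the same sum, Cs was at -0.011, Idh3a at -0.0039, Idh3b at -0.0069 and Mdh2 at -0.0019. With quantile normalization, Cs was at -0.014, Idh3a at -0.013, Idh3b at -0.0042, Sdhd at 0.0013 and Mdh2 at -0.012. With the atrial covariate, chosen after seeing the data, Cs was at -8.6e-04.

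With 1 library left out, the log2 difference ran from -0.023 to 0.038 for Cs, -0.051 to 0.012 for Dlat, -0.27 to 0.42 for Dlst, -4.0e-05 to 0.043 for Fh1, -0.11 to 0.098 for Got1, -0.025 to 0.044 for Idh3a, -0.013 to 0.022 for Idh3b, -0.012 to 0.028 for Mdh2, -0.0057 to 0.041 for Mpc2, -0.030 to 0.083 for Pcx, -0.020 to 0.011 for Pdha1, -0.027 to 0.0035 for Pdhx, -0.38 to 0.025 for Pdp1, -0.038 to 0.0070 for Sdhb and -0.043 to 0.016 for Sdhd. The number of all genes called was 1, but 0 with median-of-ratios scaling, quantile normalization, no trend or the atrial covariate (594 genes were at an unadjusted limma p under 0.05), 2 with the most abundant transcript, and 0 to 2 with 1 library left out. The number of transcripts called was 5, and 2 to 10 with 1 library left out. No paired analysis was possible because the groups share no replicate numbers. Unknown depth limits what can be said of low values.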
